A study of Mus musculus with 6 samples.

Results

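Igf2bp1, Igf2bp2, Igf2bp3, Lin28a, Lin28b, Hmga1, Hmga2, Trim71 and Arid3b are heterochronic genes of the let-7 pathway, and their mRNAs were measured in purified mouse retinal ganglion cells (RGCs) at 2 ages. These 9 genes were picked by symbol out of the 24060 genes counted, as fetal-stage genes of this pathway, and they were chosen with the contrast between the ages already in view. Their differences between the ages are therefore given as a description, with no p-value. All 9 passed the filter on low counts.

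RGCs came from wild-type C57BL/6 mice at embryonic day 18 (E18; replicates 1, 3 and 4) or postnatal day 5 (P5; replicates 6, 8 and 9), and no mouse carried an added allele or received a treatment. In each preparation the retinas were dissociated with papain, macrophages were removed on antibody-coated dishes, and RGCs were then held on dishes coated with antibody against CD90 (Thy1). The study set these ages against each other because RGCs extend axons readily before birth and lose that capacity soon after it. In the table, E18 replicate 1 has a column numbered 1, 2 and 5, nothing states how many animals gave a sample, and the labels name polyA RNA where the protocol names ribosomal RNA depletion.

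Heterochronic genes set the order of developmental stages, and they were first found in the nematode. Lin28 proteins bind the precursor of the microRNA let-7 and keep it from maturing, while mature let-7 silences Lin28 itself along with Hmga2, the Igf2bp genes, Trim71 and Arid3b. In many tissues, the retina among them, let-7 accumulates as cells leave the fetal stage and these targets decline.

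Every mature let-7 sequence of the mouse shares 1 seed, and the members of the family that the results below return to are printed first (RefSeq, GRCm38.p6, 5′ to 3′). Capitals mark the seed, bases 2 to 8, which was the same in all 9 mature sequences found.
mmu-let-7a-5p: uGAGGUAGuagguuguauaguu
mmu-let-7d-5p: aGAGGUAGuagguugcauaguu
mmu-let-7f-5p: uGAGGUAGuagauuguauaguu
mmu-let-7g-5p: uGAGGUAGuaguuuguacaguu
mmu-miR-98-5p: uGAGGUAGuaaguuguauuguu

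The reverse complement of this seed, CTACCTC, was searched on the sense strand of the 3′ untranslated region (UTR) of 1 transcript per gene in the GENCODE annotation of mm10, and a following A made an 8-base match, CTACCTCA. A 7-base match was present in all 9 genes, against 9.25% of the 19958 genes with a 3′ UTR, and an 8-base match was present in 7 of the 9, against 3.15%. The 9 genes are let-7 pathway genes by choice, so these shares describe them and test nothing. They held 22 matches in all, 13 of them with 8 bases. Hmga1 and Arid3b had 1 match of 7 bases each and none of 8. Igf2bp1, Lin28b, Hmga2 and Trim71 each had 4 matches, a number reached by 12 of all genes with a 3′ UTR.

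To show what a let-7 family microRNA could pair with in each gene, 1 match per gene is printed with its flanks, in the sense of the mRNA and with the match in capitals.
Igf2bp1, 3′ UTR at chr11:95961771-95961800, minus strand: gctgtgcgaagtaaaCTACCTCAaggtgtg
Igf2bp2, 3′ UTR at chr16:22059466-22059495, minus strand: acacacaaataaaagCTACCTCAggtgttt
Igf2bp3, 3′ UTR at chr6:49086780-49086809, minus strand: tgcatttttactcaaCTACCTCAggtattc
Lin28a, 3′ UTR at chr4:134005182-134005211, minus strand: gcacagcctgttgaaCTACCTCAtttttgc
Lin28b, 3′ UTR at chr10:45381015-45381044, minus strand: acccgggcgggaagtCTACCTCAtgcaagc
Hmga1, 3′ UTR at chr17:27563277-27563305, plus strand: tcctctgttcacaaaCTACCTCtggacgg
Hmga2, 3′ UTR at chr10:120364217-120364246, minus strand: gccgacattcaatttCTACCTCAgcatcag
Trim71, 3′ UTR at chr9:114512465-114512494, minus strand: aacattgcctaagtcCTACCTCAgcttaaa
Arid3b, 3′ UTR at chr9:57790356-57790383, minus strand: tatttcaataaagctCTACCTCttcaca

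The reads counted on genes numbered 81213639 to 114512853 in a sample. Levels are given in CPM, the reads of a gene relative to the TMM-scaled total of its library, and a fold change is E18 over P5 on the log2 scale with the standard error (SE) of the edgeR fit. Rbpms, an RNA-binding protein that marks RGCs, had 293 ± 23.7 CPM at E18 and 315 ± 21.5 CPM at P5 (SD, n = 3). Thy1, the surface protein used for panning, had 247 ± 56.2 CPM at E18 and 553 ± 120 CPM at P5, with a log2 fold change of -1.16 (adjusted p = 0.00197, edgeR). E18 replicates 1 and 3 stood apart in genes of some other cells, but not of all. The 10 amacrine genes summed to 98.4 and 201 CPM there, against 15.5 CPM in E18 replicate 4 and 20.2 to 29.5 CPM at P5. A large part of the sums in replicates 1 and 3 came from Tfap2b alone, whose values are given below. The 13 progenitor genes summed to 190 and 117 CPM, against 35.3 CPM in E18 replicate 4 and 22.0 to 30.7 CPM at P5. Sox2 alone gave 45.7 and 69.3 CPM of these sums in E18 replicates 1 and 3, and 0.950 CPM in replicate 4. The progenitor sum of replicate 3 thus rested largely on this gene. The 14 genes of dividing cells summed to 358 and 146 CPM, against 92.9 CPM and 71.3 to 90.9 CPM. The 8 genes of endothelial cells and pericytes summed to 72.5 and 64.5 CPM, against 16.4 CPM and 14.5 to 17.7 CPM. Other lists were higher at P5. The 11 photoreceptor genes summed to 5.06 to 14.2 CPM at E18 and 17.5 to 25.0 CPM at P5. The 9 bipolar genes summed to 54.2 to 62.8 CPM and 84.6 to 118 CPM. Genes of Muller glia and astrocytes (319 to 350 CPM at E18, 240 to 279 CPM at P5) and of microglia (4.58 to 5.09 and 3.26 to 3.62 CPM) set no E18 sample apart. None of these defining genes was at 0 in every sample.

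Of the 9 genes, 6 passed the threshold of 0.05 on the adjusted p as higher at E18, 0 passed it as lower, and 3 did not pass it. Of the 16449 genes tested, 43.4% passed it in either direction, 20.8% as higher at E18 and 22.5% as lower. Every E18 sample lay above every P5 sample in 7 of the 9, as in 27.6% of all genes tested. The median log2 fold change was 1.71 over the 9 genes and 0.00 over all genes tested. Since the genes were selected on this contrast, nothing is read from these counts. In bulk samples, fewer cells of a type and less RNA per cell cannot be told apart.

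**Figure D1:**
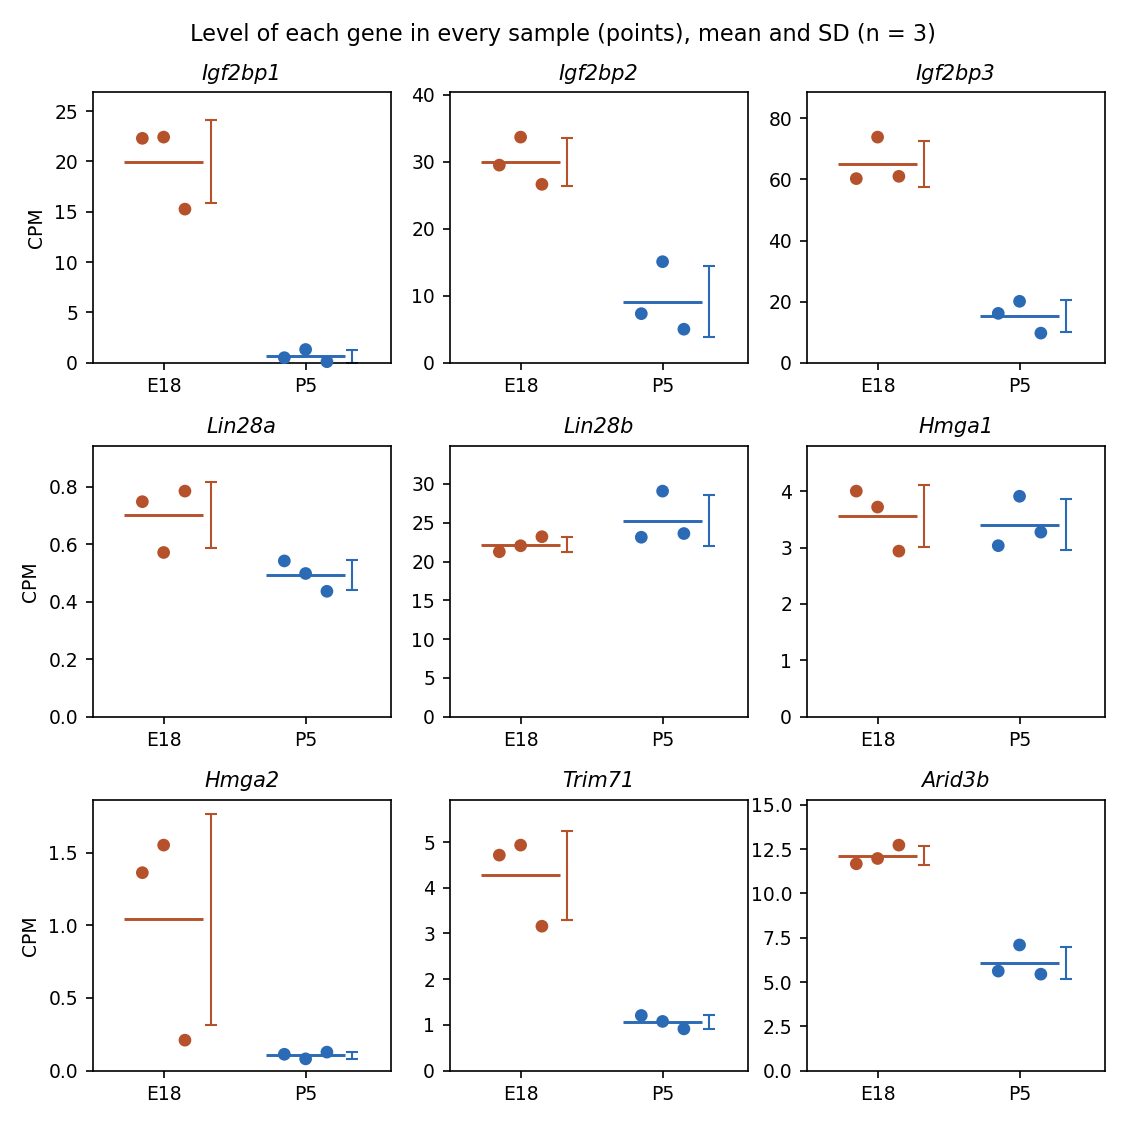
Level of each of the 9 genes in CPM (vertical axes from 0) in the 3 E18 and the 3 P5 samples (points), with the mean (line) and SD (bar, n = 3). The ages stood apart in all genes but Lin28b and Hmga1, and Hmga2 split the E18 samples.

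The Lin28 genes encode the RNA-binding proteins that block let-7 maturation, and their mRNAs differed little between the ages. Lin28b had 21.3, 22.0 and 23.2 CPM in E18 replicates 1, 3 and 4 and 23.1, 29.1 and 23.6 CPM in P5 replicates 6, 8 and 9. The ages overlapped, by E18 replicate 4 and P5 replicate 6, and replicate 8 was the highest of all samples. The log2 fold change was -0.19 with an SE of 0.12, and it ran from -0.26 to -0.10 as samples were left out 1 at a time. Lin28a, the paralog known from pluripotent cells, was barely counted. It had 0.747, 0.571 and 0.784 CPM at E18 and 0.541, 0.498 and 0.436 CPM at P5, from 41 to 71 reads per sample. All E18 values were above all P5 values, by a narrow gap, and the log2 fold change of 0.51 with an SE of 0.27 did not pass the threshold.

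The Igf2bp genes encode KH-domain proteins that bind mRNAs, protect them from decay and carry them along the cytoskeleton. Igf2bp1 is also known as the zipcode-binding protein, which takes beta-actin mRNA into growth cones. Igf2bp1 had 22.3, 22.4 and 15.3 CPM in E18 replicates 1, 3 and 4 and 0.496, 1.31 and 0.0957 CPM in P5 replicates 6, 8 and 9. The ages lay far apart, and P5 replicate 9 held only 9 reads of it, against 1382 in the lowest E18 sample. Its log2 fold change was 4.97 with an SE of 0.65, a 31.3-fold difference that ranked 7 among all genes tested. As samples were left out 1 at a time it ran from 4.45 to 6.07, the latter without P5 replicate 8.

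Igf2bp3, a fetal and tumor-associated paralog, was the most abundant Igf2bp gene per length of transcript at both ages. It had 60.3, 73.9 and 61.0 CPM at E18 and 16.1, 20.1 and 9.67 CPM at P5. The ages lay well apart, and the log2 fold change was 2.09 with an SE of 0.24. Igf2bp2, the paralog that stays on in adult tissues, had 29.5, 33.7 and 26.6 CPM at E18 and 7.32, 15.1 and 4.996 CPM at P5. The ages did not overlap, and the log2 fold change was 1.71 with an SE of 0.35.

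Per length, the 3 Igf2bp genes together had 25.0 ± 2.92 CPM per kb of transcript at E18 and 5.94 ± 2.58 CPM per kb at P5 (SD, n = 3). Igf2bp1 made up 8.03% to 11.0% of this sum at E18 and 0.324% to 1.81% at P5. Igf2bp2 made up 30.1% to 31.4% at E18 and 33.2% to 44.7% at P5. Igf2bp3 stayed the leading member, at 57.6% to 61.9% at E18 and 53.5% to 65.7% at P5. Its share overlapped between the ages, while those of Igf2bp1, lower at P5, and Igf2bp2, higher at P5, did not.

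**Figure D2:**
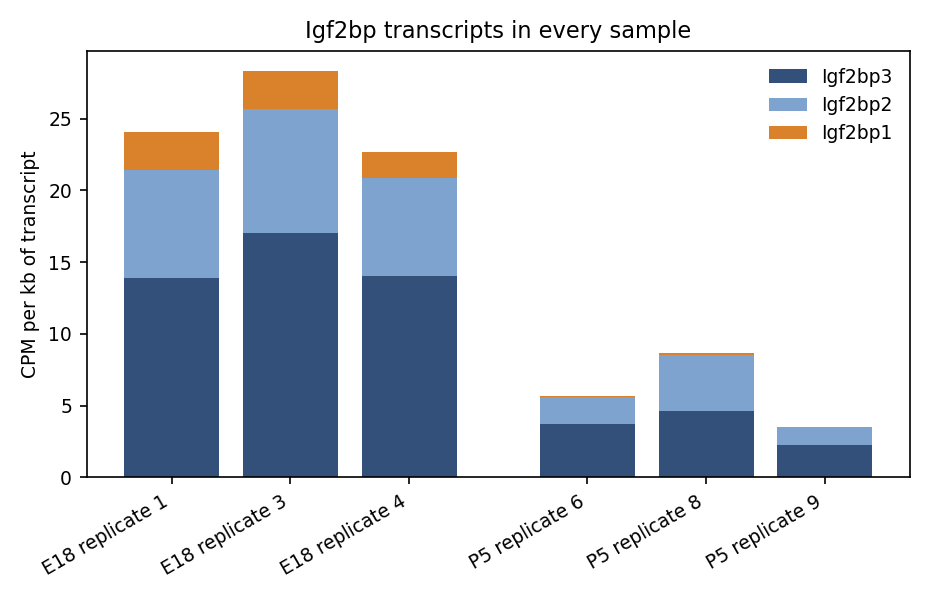
Stacked levels of Igf2bp1, Igf2bp2 and Igf2bp3 in CPM per kb of transcript (vertical axis from 0) in each of the 6 samples. The summed bars reach 22.7 to 28.3 at E18 and 3.52 to 8.65 at P5, where the Igf2bp1 segment is hardly visible.

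P5 replicate 8 had the highest and replicate 9 the lowest level among the P5 samples in Igf2bp1, Igf2bp2, Igf2bp3 and Arid3b. This order was shared by 22.2% of all genes tested and by 44.2% of the genes that passed the threshold as higher at E18. Thy1 ran the other way, with 500 CPM in replicate 6, 469 CPM in replicate 8 and 690 CPM in replicate 9. Whether these orders have a shared source was not tested.

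Trim71 encodes an RNA-binding member of the TRIM-NHL proteins, the counterpart of nematode LIN-41, and represses mRNAs in early embryos and neural progenitors. It had 4.71, 4.93 and 3.16 CPM in E18 replicates 1, 3 and 4 and 1.21, 1.08 and 0.914 CPM in P5 replicates 6, 8 and 9. The lowest E18 sample was above every P5 sample, and the log2 fold change was 2.001 with an SE of 0.24. All 4 of its let-7 matches had 8 bases, a number that 3 of the 19958 genes reached, and no other of the 9 genes did.

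Hmga1 and Hmga2 encode AT-hook proteins that bend DNA and open chromatin, and both are known from embryonic and tumor cells. Hmga2 had 1.36, 1.55 and 0.210 CPM in E18 replicates 1, 3 and 4, from 113, 174 and 19 reads. At P5 it had 0.113, 0.0813 and 0.128 CPM, from 10, 8 and 12 reads. E18 replicate 4 was close to the P5 samples and far below the other E18 samples, so the log2 fold change of 3.27 with an SE of 0.70 rested on replicates 1 and 3. Without both of them the log2 fold change was 0.97. Hmga1 showed no such difference. It had 4.00, 3.72 and 2.94 CPM at E18 and 3.03, 3.91 and 3.27 CPM at P5, and the ages overlapped, with a log2 fold change of 0.06 and an SE of 0.20.

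Arid3b encodes a DNA-binding protein with an ARID domain. It had 11.7, 11.97 and 12.7 CPM in E18 replicates 1, 3 and 4 and 5.62, 7.09 and 5.44 CPM in P5 replicates 6, 8 and 9. The spread within each age was small, and the log2 fold change of 1.00 had an SE of 0.15. Unlike Hmga2 and Trim71, Arid3b was highest in E18 replicate 4.

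**Figure D3:**
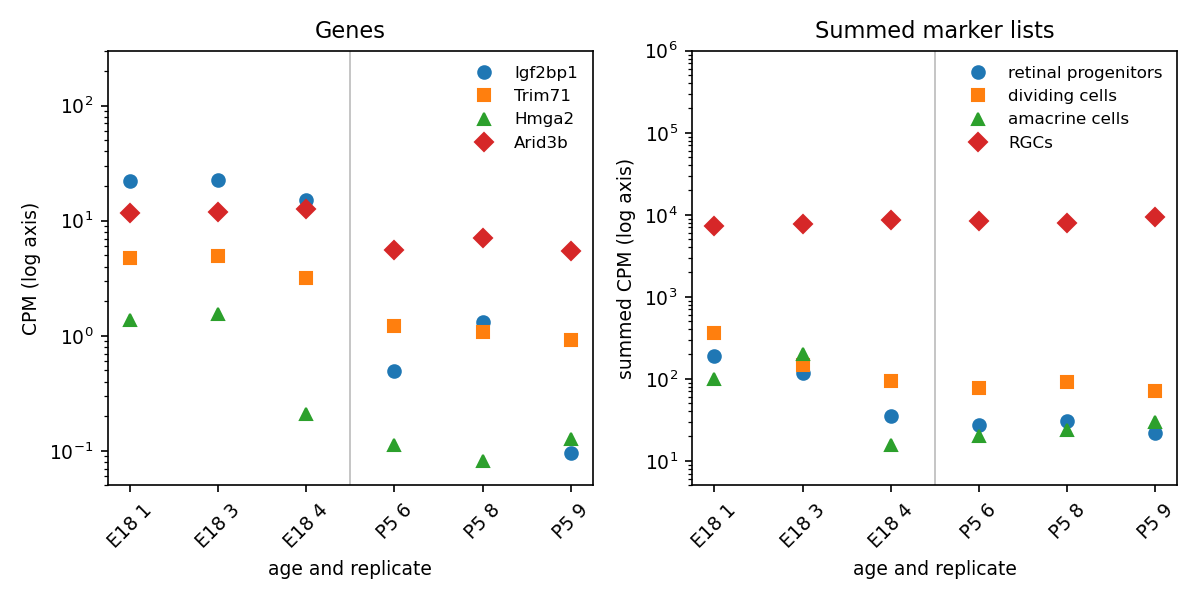
Left, levels of Igf2bp1, Trim71, Hmga2 and Arid3b in CPM, and right, summed CPM of marker lists for retinal progenitors, dividing cells, amacrine cells and RGCs, in each of the 6 samples, both on log axes. E18 replicate 4 resembles the P5 samples in the summed amacrine genes (15.5 against 20.2 to 29.5 CPM) and in Hmga2, but not in Igf2bp1, Trim71 or Arid3b.

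E18 replicate 4 was the lowest E18 sample in Igf2bp1, Igf2bp2, Hmga1, Hmga2 and Trim71, as in 31.3% of all genes tested. The same sample was the lowest E18 sample in the summed genes of amacrine cells, progenitors, dividing cells, and endothelial cells with pericytes. Sox2, a progenitor factor also kept by some amacrine cells, had 45.7, 69.3 and 0.950 CPM in E18 replicates 1, 3 and 4. Tfap2b, an amacrine factor that gave a large part of the amacrine sums in replicates 1 and 3, had 47.5, 119 and 1.62 CPM. Hmga2 moved with these markers across the E18 samples, and the part of other cells in its level was not tested. With E18 replicate 4 as the only E18 sample, a fit in which it is assumed to vary like the P5 samples, the log2 fold change was 4.59 for Igf2bp1, 1.55 for Igf2bp2, 2.005 for Igf2bp3, 1.58 for Trim71 and 1.08 for Arid3b. That fit has no spread between E18 samples, so only the size of each difference is given.

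On the scale of CPM per kb of transcript, the order at E18 was Igf2bp3 (14.97), Igf2bp2 (7.68), Lin28b (4.10), Arid3b (2.91), Igf2bp1 (2.39), Hmga1 (1.78), Trim71 (0.457), Hmga2 (0.281) and Lin28a (0.1999). Neighbors stood apart in all samples down to Arid3b, but the samples of Arid3b and Igf2bp1 lay close, and those of Igf2bp1 and Hmga1 overlapped. Hmga1 stood apart from Trim71. The samples of Hmga2 overlapped those of Trim71 and those of Lin28a. At P5 the order was Lin28b (4.68), Igf2bp3 (3.52), Igf2bp2 (2.34), Hmga1 (1.70), Arid3b (1.45), Lin28a (0.140), Trim71 (0.114), Igf2bp1 (0.0757) and Hmga2 (0.0289). There the only clear step lay between Arid3b and Lin28a, and all other neighbors overlapped. Lin28b thus moved up to first place with a nearly unchanged level.

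Some of these genes share their locus with another. Hmga1 (chr17:27556497-27563674, plus strand) overlaps AI413582 on the opposite strand, which had 16.4 ± 1.305 CPM at E18 and 18.29 ± 4.64 CPM at P5 and did not pass the threshold (adjusted p = 0.511, edgeR). Igf2bp3 (chr6:49085223-49214957, minus strand) overlaps Malsu1, with 11.0 ± 0.577 CPM and 12.7 ± 0.222 CPM. Hmga2 (chr10:120361275-120476469, minus strand) overlaps the antisense gene 9230105E05Rik, with 0.182 ± 0.0340 CPM and 0.109 ± 0.0659 CPM. Whether strand was used in counting is not stated, how reads of these pairs were split is therefore uncertain, and for Hmga1 the partner had more reads than the gene itself. Igf2bp1 lies at chr11:95957163-96005940, Igf2bp2 at chr16:22059009-22163299, Lin28a at chr4:134003330-134018841, Lin28b at chr10:45376620-45486395, Trim71 at chr9:114507133-114564369 and Arid3b at chr9:57790353-57836793, all on the minus strand of mm10. The processed copy Hmga2-ps1 had 0.325 to 0.455 CPM at E18 and 0.575 to 1.11 CPM at P5, more reads than Hmga2 itself in every P5 sample.

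The let-7 genes are the other arm of the pathway. Libraries of this kind do not hold mature microRNAs, so reads on a let-7 locus come from its precursor or host transcript. Of 17 loci and host transcripts listed, 11 passed the filter. Of these, 3 were higher at E18, 0 were lower and 8 did not pass the threshold. Over all genes tested, 20.8% were higher at E18 and 22.5% lower, so nothing is read from the number of loci called. The 3 higher loci were Mirlet7a-1, Mirlet7f-1 and Mirlet7d, which lie on the minus strand within 2261 bases of each other at chr13:48536012-48538272. Whether reads on them come from 1 transcript was not tested, so they are not taken as independent. Mirlet7d had 2.46, 2.43 and 1.87 CPM at E18 and 0.440, 0.274 and 0.149 CPM at P5, with a log2 fold change of 2.97 (SE 0.38, adjusted p = 0.000753, edgeR). Mirlet7f-1 had 1.89, 1.998 and 1.83 CPM at E18 and 0.327, 0.305 and 0.191 CPM at P5, with a log2 fold change of 2.79 (SE 0.28, adjusted p = 0.000308). Mirlet7a-1 had 0.639, 0.972 and 0.674 CPM at E18 and 0.271, 0.102 and 0.0744 CPM at P5, with a log2 fold change of 2.36 (SE 0.48, adjusted p = 0.00502) that was 3.08 without P5 replicate 6. The reads on this cluster were higher at E18, as were 6 of the 9 genes, all of which hold let-7 matches. The other 3, Lin28a, Lin28b and Hmga1, hold matches too but did not pass. Their log2 fold changes were 0.51, -0.19 and 0.06. Mature let-7 was not measured, and a relation between these loci and the 9 genes was not tested.

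The hairpins of the cluster are printed because these let-7 loci passed the threshold, with the mature 5p arm in capitals (RefSeq, GRCm38.p6, minus strand of chromosome 13). The motif GGAG, which Lin28 binds in the loop region, was searched on the hairpin strand between the 2 arms and was found in 8 of 11 hairpins of the family, these 3 included, and not in that of Mir98.
Mirlet7d, chr13:48536012-48536114: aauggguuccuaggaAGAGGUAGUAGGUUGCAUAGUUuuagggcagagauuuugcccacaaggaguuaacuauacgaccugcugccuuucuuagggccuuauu
Mirlet7f-1, chr13:48537829-48537917: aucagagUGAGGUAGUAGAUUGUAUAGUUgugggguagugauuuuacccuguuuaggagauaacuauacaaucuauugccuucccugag
Mirlet7a-1, chr13:48538179-48538272: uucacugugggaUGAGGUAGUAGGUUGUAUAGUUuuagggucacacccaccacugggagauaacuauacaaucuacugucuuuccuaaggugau

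Other let-7 loci did not pass the threshold. Mirlet7g, within the gene Wdr82, had 0.301, 0.321 and 0.210 CPM at E18 and 0.192, 0.0609 and 0.0532 CPM at P5 (log2 fold change 1.45, adjusted p = 0.0504, edgeR), and it passed without P5 replicate 6 (2.24, adjusted p = 0.0123). Mir98 had 0.338, 0.384 and 0.398 CPM at E18 and 0.496, 0.457 and 0.4996 CPM at P5 (log2 fold change -0.37, adjusted p = 0.289). Mirlet7e had 0.254 to 0.392 CPM at E18 and 0.180 to 0.361 CPM at P5, and the ages overlapped. The host transcripts Mirlet7bhg, 2810055G20Rik and 2610203C20Rik had log2 fold changes of -0.54, -0.62 and 0.15, and the protein-coding hosts Wdr82 and Huwe1 had 0.18 and 0.13.

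**Figure D4:**
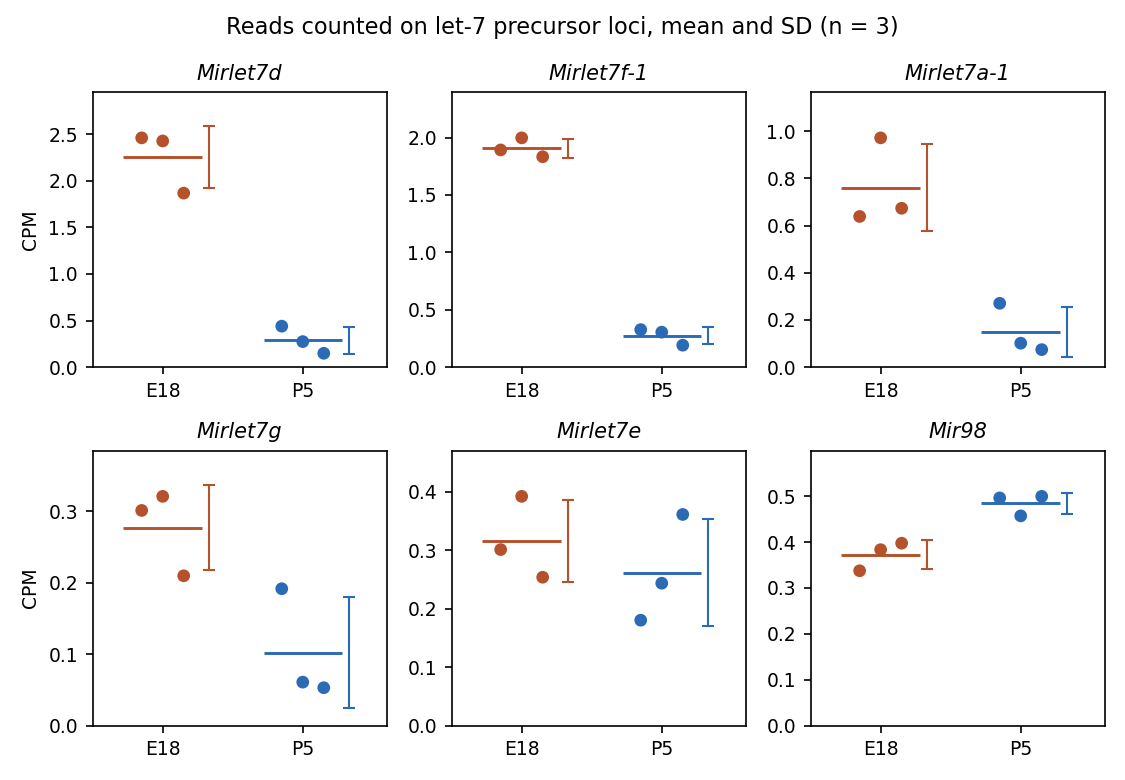
Reads counted on 6 let-7 precursor loci in CPM (vertical axes from 0) in each E18 and P5 sample (points), with the mean (line) and SD (bar, n = 3). In the upper row the 3 loci of the chromosome 13 cluster stand apart between the ages and Mirlet7g follows, whereas Mirlet7e overlaps and Mir98 is slightly higher at P5.

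Among 15 genes that process or degrade let-7 precursors, 6 were higher at E18, 0 were lower and 9 did not pass the threshold. Their median log2 fold change was 0.26, and over all genes tested 20.8% were higher and 22.5% lower. The enzymes that cut let-7 precursors were not alike. Drosha, which cuts the primary transcript, had 94.8 ± 15.6 CPM at E18 and 68.1 ± 5.57 CPM at P5 (log2 fold change 0.48, adjusted p = 0.0187, edgeR), a call lost without E18 replicate 3 (adjusted p = 0.0798) or replicate 4 (adjusted p = 0.0509). Dicer1, which cuts the hairpin, had a log2 fold change of -0.01 (adjusted p = 0.946). The largest difference was in Hnrnpa1, an hnRNP that binds the let-7a precursor and hinders its processing, with 32.7 ± 3.79 CPM at E18 and 12.4 ± 2.81 CPM at P5 (log2 fold change 1.396, adjusted p = 0.000709). The RNA helicases Ddx17 and Ddx5 had log2 fold changes of 0.64 and 0.51. Zcchc11 and Zcchc6, uridylyltransferases that act on let-7 precursors, had log2 fold changes of 0.42 and 0.26 (adjusted p = 0.0640 and 0.0842, edgeR). Dis3l2, the exonuclease that removes uridylated let-7 precursors, was higher at E18 by 0.38 on the log2 scale (adjusted p = 0.00798). Without P5 replicate 8, 11 of the 15 genes passed.

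Of 7 Argonaute and GW182 genes, whose proteins carry out silencing, 3 were higher at E18, 0 were lower and 4 did not pass. Their median was 0.30, and over all genes tested 20.8% were higher and 22.5% lower. Ago1 had 132 ± 16.2 CPM at E18 and 83.9 ± 15.96 CPM at P5 (log2 fold change 0.65, adjusted p = 0.00808, edgeR), and Ago2, the slicing Argonaute, had 37.0 ± 3.19 CPM and 24.4 ± 0.810 CPM (0.60, adjusted p = 0.00242). The call of Ago4 (0.66, adjusted p = 0.0484) was lost on leaving out any of the samples but P5 replicate 8 (adjusted p from 0.0553 to 0.130). Without P5 replicate 8, 6 of the 7 passed.

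**Figure D5:**
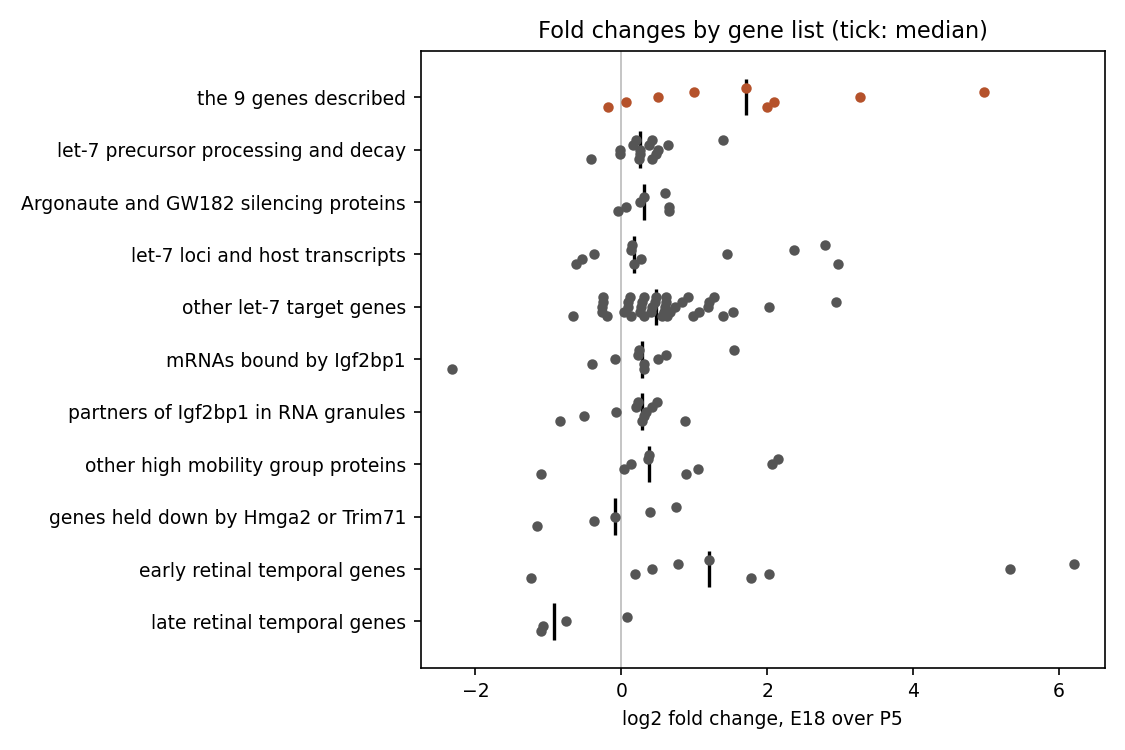
Log2 fold change of E18 over P5 (horizontal axis) for the 9 genes and for each gene tested in 10 lists of related genes (points), with the median of each list (tick). The median is 1.71 for the 9 genes, 0.48 for the other let-7 targets and 1.21 for the early temporal genes, while the other lists have medians between -0.92 and 0.38.

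Of 40 other known let-7 target genes, 39 were tested, and 20 were higher at E18, 1 was lower and 18 did not pass the threshold. Their median log2 fold change was 0.48, and over all genes tested 20.8% were higher and 22.5% lower. Hic2, a transcriptional repressor, had 62.0 ± 3.69 CPM at E18 and 21.5 ± 4.36 CPM at P5 (log2 fold change 1.53, adjusted p = 0.000271, edgeR). Prtg, an immunoglobulin-superfamily protein of early neural tissue, had 3.12 ± 0.869 CPM and 0.770 ± 0.215 CPM (2.02, adjusted p = 0.00148). Igf1r, the receptor for insulin-like growth factors, had 160 ± 14.1 CPM and 66.1 ± 21.7 CPM (1.28, adjusted p = 0.00203). Ccnd1, the G1 cyclin, had 146, 34.5 and 14.2 CPM in E18 replicates 1, 3 and 4 and 5.54 to 10.9 CPM at P5 (2.94, adjusted p = 0.0129). Without E18 replicate 1 its log2 fold change was 1.54 (adjusted p = 0.0168). It moved with the summed genes of dividing cells, whose part in it was not tested, and lost its call without P5 replicate 6 (adjusted p = 0.0598) or replicate 9 (adjusted p = 0.0510). Elovl4, an enzyme that elongates very long fatty acids, was the single gene lower at E18, with 180 ± 15.01 CPM and 286 ± 20.8 CPM (-0.67, adjusted p = 0.00129). With E18 replicate 4 as the only E18 sample, 7 of the genes in this list passed.

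Taking every tested gene with an 8-base let-7 match in its 3′ UTR, and leaving out the 9 genes, gave 528 genes. Of these, 136 (25.8%) were higher at E18 and 126 (23.9%) lower, with a median log2 fold change of 0.04. Among 13366 genes without a match, 20.3% were higher and 23.4% lower, with a median of -0.01. The genes with a match had longer 3′ UTRs, with a median of 2444 bases against 1044. An 8-base match to miR-125, a microRNA encoded beside let-7 at some loci, marked 808 genes, of which 25.1% were higher and 21.4% lower, with a median of 0.06 and a median 3′ UTR of 2328 bases. The let-7 shares are therefore set beside those of another seed, and nothing particular to let-7 was tested.

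Among the genes with 4 or more 7-base matches, Hic2, Trim6 and D10Wsu102e passed the threshold as higher at E18 beside Igf2bp1, Hmga2 and Trim71. D10Wsu102e, with 39.9, 39.96 and 38.5 CPM at E18 and 28.5, 35.1 and 25.3 CPM at P5 (log2 fold change 0.41, adjusted p = 0.0297, edgeR), has an annotated 3′ UTR of 122583 bases. It lost its call in 5 of the 6 fits that left out 1 sample and kept it without P5 replicate 8 (adjusted p = 0.00227 to 0.0965 over the 6). Trim6, which like D10Wsu102e was named after its values were seen, had 0.651, 0.196 and 0.133 CPM at E18 and 0.0226 to 0.0638 CPM at P5 (log2 fold change 2.77, adjusted p = 0.0151, edgeR). Its call was lost without E18 replicate 1 (1.82, adjusted p = 0.0501) or P5 replicate 6 (2.46, adjusted p = 0.0641). Nr6a1, with the most matches of any gene (8), had 15.3 CPM at E18 and 14.4 CPM at P5 and did not pass (adjusted p = 0.565), and Mcf2l, with 7 matches of 8 bases, did not either (adjusted p = 0.642). Like Lin28b, both thus held many matches at nearly equal levels at the 2 ages. Nudt12, with 7 matches of 7 bases, had 5.92 CPM at E18 and 9.08 CPM at P5 and did not pass (log2 fold change -0.62, adjusted p = 0.116, edgeR). Zbtb37, with 4 matches, did not pass (0.12, adjusted p = 0.484), and Ptafr had too few reads to be tested.

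For the Igf2bp genes, 10 RNAs known to be bound by Igf2bp1 were listed, of which 5 were higher at E18, 2 were lower and 3 did not pass. Their median was 0.28, and over all genes tested 20.8% were higher and 22.5% lower. Myc is also in the list of other let-7 targets. Gap43, a growth cone protein, had 1773 ± 153 CPM at E18 and 1248 ± 162 CPM at P5 (log2 fold change 0.51, adjusted p = 0.00804, edgeR), and Actb, the beta-actin mRNA, was higher by 0.24 on the log2 scale (adjusted p = 0.0297). H19, an imprinted noncoding RNA, had 27.0, 9.35 and 10.6 CPM at E18 and 4.74 to 5.71 CPM at P5 (1.54, adjusted p = 0.0109), and without E18 replicate 1 its log2 fold change was 0.90 (adjusted p = 0.00943). Cd44, a hyaluronan receptor, was lower at E18 (-2.32, adjusted p = 0.00393). Myc and Mapt passed (0.62 and 0.32) but lost their calls on leaving out any of 4 samples, with adjusted p from 0.0745 to 0.0981 for Myc and from 0.0690 to 0.128 for Mapt. Without E18 replicate 4 or without P5 replicate 6, 4 of the 10 passed.

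Of 11 partners of Igf2bp1 in RNA granules, 5 were higher at E18, 2 were lower and 4 did not pass. Their median was 0.28, and over all genes tested 20.8% were higher and 22.5% lower. Khsrp is also in the list of let-7 processing genes. Dhx9, an RNA helicase, had 175 ± 25.9 CPM at E18 and 95.5 ± 18.35 CPM at P5 (0.87, adjusted p = 0.00300, edgeR), and Hnrnpu had 505 ± 9.73 CPM and 360 ± 35.9 CPM (0.49, adjusted p = 0.00403). The carriers of dendritic mRNA Stau2 and Pura were lower at E18, by log2 fold changes of -0.51 (adjusted p = 0.00615) and -0.83 (adjusted p = 0.00354). Ybx1 and Khsrp passed (0.33 and 0.42) but lost their calls without 5 and 4 of the samples in turn, with adjusted p of up to 0.120 and 0.0773. Without E18 replicate 1, E18 replicate 4 or P5 replicate 9, 4 of the 11 passed.

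Of 9 other high mobility group genes, 6 were higher at E18, 1 was lower and 2 did not pass. Their median was 0.38, and over all genes tested 20.8% were higher and 22.5% lower. Hmgb2, which is abundant in dividing cells, had 43.5, 27.0 and 19.4 CPM in E18 replicates 1, 3 and 4 and 6.42, 10.4 and 3.45 CPM at P5 (2.15, adjusted p = 0.00370, edgeR). The nucleosome-binding Hmgn5 and Hmgn1 had log2 fold changes of 2.07 (adjusted p = 0.000943) and 1.05 (adjusted p = 0.00362). Hmgn3 went the other way, with 45.8 ± 1.54 CPM at E18 and 98.7 ± 6.13 CPM at P5 (-1.11, adjusted p = 0.000145). Hmgb1 had a log2 fold change of 0.03 (adjusted p = 0.770).

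Of 7 genes listed as held down by Hmga2 or Trim71, 5 were tested. Of these, 2 were higher at E18, 1 was lower and 2 did not pass. Their median log2 fold change was -0.09, and over all genes tested 20.8% were higher and 22.5% lower. Cdkn1a, a cell cycle inhibitor repressed by Trim71, was lower at E18, with 15.9 ± 1.35 CPM and 35.2 ± 1.88 CPM (-1.15, adjusted p = 0.000243, edgeR). Egr1, an immediate-early gene that also responds to dissociation, was higher by 0.75 (adjusted p = 0.0168) and lost its call without E18 replicate 1 (0.49, adjusted p = 0.0544) or P5 replicate 9 (adjusted p = 0.0511). Nab1 was higher by 0.40 (adjusted p = 0.0282), and lost its call without E18 replicate 3, E18 replicate 4 or P5 replicate 9 (adjusted p from 0.0709 to 0.0999), so that without P5 replicate 9 Cdkn1a alone passed. Nab2 and Shcbp1 did not pass, with log2 fold changes of -0.38 and -0.09, and their ages overlapped. Cdkn2a and Cdkn2b, which Hmga2 holds down in neural stem cells, had too few reads to be tested.

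The retina has its own temporal genes, which mark early or late progenitors. Of 9 early genes, 6 were higher at E18, 0 were lower and 3 did not pass. Their median was 1.21, and over all genes tested 20.8% were higher and 22.5% lower. Prtg and Onecut2 are also in the list of other let-7 targets. Pou2f2 had 8.26, 9.03 and 9.19 CPM at E18 and 2.63, 2.81 and 2.27 CPM at P5 (1.78, adjusted p = 0.000225, edgeR). Foxn4 and Fgf15, progenitor genes, had 5.87, 1.28 and 0.210 CPM and 21.2, 4.27 and 0.884 CPM in E18 replicates 1, 3 and 4, and at most 0.0508 and 0.316 CPM at P5. They moved with the progenitor markers among the E18 samples, whose part in them was not tested. Fgf15 is itself among the 13 progenitor genes, so its likeness to their sum was partly fixed in advance. In both genes, E18 replicate 4 was the E18 sample closest to P5. Of 4 late genes, Casz1 was lower at E18, with 9.44 ± 3.34 CPM and 19.8 ± 3.30 CPM (-1.07, adjusted p = 0.00765), and Nfia, Nfib and Nfix did not pass. Without E18 replicate 1, 3 of the 4 late genes passed.

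The genes nearest to each of the 9 were found by the distance of centered log2(CPM + 0.5) values over the 6 samples, among other genes whose mean reached 1 CPM. This is a description over 6 samples that differ in age and depth. Nearest to Igf2bp3 was Sox11, a transcription factor of young neurons, with 833, 943 and 832 CPM at E18 and 224, 283 and 119 CPM at P5, at a distance of 0.204. Nearest to Igf2bp1 was Fam60a, with 55.1, 64.0 and 55.4 CPM at E18 and 4.61, 11.5 and 1.201 CPM at P5, at a distance of 1.26, so no gene matched it closely. Irf1 and Rnf122 followed Fam60a. Igf2bp2 lay nearest to Ccnjl (0.339), Gab1 and Aif1l, and Igf2bp3 also to Podxl and Rassf2.

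Trim71 lay nearest to Plekhf2 (0.175), Spry1 and Smad3, all higher in E18 replicates 1 and 3 than in 4. Arid3b lay nearest to Ypel4 (0.0729), Kif21b and Cacna1h, all highest in E18 replicate 4. Hmga2 lay nearest to Pdyn, the precursor of dynorphins, with 3.63, 4.41 and 0.884 CPM at E18 and 0.699, 1.03 and 0.978 CPM at P5, and then to Bmp2 and 2810459M11Rik. Lin28b lay nearest to Fyn (0.0520), Ets2 and Klhdc10, and Hmga1 to Arl6ip6 (0.117), Gar1 and Phc3, all with small differences between the ages. Lin28a lay nearest to Gabra3 (0.0862), Rfng and Klf10, but its level is close to the added 0.5 CPM, which flattens its pattern. The added 0.5 CPM also flattens Hmga2, at 0.0813 to 0.210 CPM in E18 replicate 4 and the P5 samples. It flattens Igf2bp1 too, at 0.0957 to 1.31 CPM in the P5 samples.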

How the data were processed

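RNA-seq of immunopanned RGCs was compared between 3 E18 and 3 P5 samples, grouped by their labels. The deposited raw counts per gene were made by the authors, who ran STAR against mm10 and then HT-seq over RefSeq gene models. The normalized counts deposited by the authors are a signal scaled by TMM and were not used. The log2 fold changes and the p-values with false discovery rates deposited by the authors hold their own edgeR comparison and were not used, nor was the deposited rank. How strand and multi-mapped reads were treated is not given in the sources used here.

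Counts were normalized by TMM, filtered with filterByExpr and passed to edgeR 4.0.16 (R 4.3.3), whose quasi-likelihood test was used with Benjamini-Hochberg adjustment over 16449 genes and a threshold of 0.05. The scripts were tested on simulated data. Nothing says that the samples came from separate animals, so p-values measure only the spread between these samples. Lengths, coordinates and 3′ UTRs came from GENCODE M21 (mm10), with 1 transcript per gene, and microRNA sequences from RefSeq. A gene of a list was named if it passed the threshold without overlap at a mean of at least 1 CPM, up to 4 with the largest fold change in each direction. All tested let-7 loci, Rbpms, Thy1 and the 3 genes nearest to each member were named too. Other genes given with values were named after their values were seen. The members and the lists were chosen with earlier results of these data known. The alternatives were DESeq2 1.42.0, edgeR's likelihood ratio test, other normalizations and filters, a shorter seed match and the omission of each sample. A listed gene that passed the threshold is not reported here.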

Additional observations from a re-analysis of the deposited data

How the results depend on the processing

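No paired analysis was possible because the ages share no replicate number. Which of the 9 genes were called was the same under the other normalizations, DESeq2, the likelihood ratio test and no filter, and without any 1 sample. Directions were the same too, except for Hmga1, which was not called and ran from -0.03 to 0.18 without 1 sample. A filter of 1 CPM in 3 samples removed Hmga2 and Lin28a, and left 5 of the 9 called.

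Without 1 sample, the number of genes called ran from 4575 (without E18 replicate 3) to 8796 (without P5 replicate 8), from 7135. The numbers called in the lists ran from 4 to 11 for let-7 processing, 2 to 6 for Argonaute and GW182, 3 to 4 for let-7 loci, 16 to 24 for other let-7 targets, 4 to 8 for RNAs bound by Igf2bp1, 4 to 9 for granule partners, 5 to 7 for other high mobility group genes, 1 to 3 for genes held down by Hmga2 or Trim71, and 1 to 3 for late temporal genes. For late temporal genes it was 2 with DESeq2, the likelihood ratio test and no filter. Among genes with a let-7 match, 267 were called with 8 bases (182 to 334 without 1 sample) and 737 with 7 bases. Of 40 called genes named from the lists or as checks, 9 lost the call without some 1 sample.

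Leaving out both E18 replicates 1 and 3, chosen after seeing the data, left 1 E18 sample and 1633 calls in all, 2 in let-7 processing, 0 in Argonaute and GW182, 7 in other let-7 targets, 2 in RNAs bound by Igf2bp1, 0 in granule partners, 3 in other high mobility group genes, 2 in early and 3 in late temporal genes, and 68 among genes with a let-7 match. Fewer samples entered that fit. Differences near 0 changed sign there in Mirlet7e (-0.035), Huwe1 (-0.029) and Rbpms (0.031). The cause of these changes was not tested. Reads limit Hmga2 and Lin28a, with 8 to 174 and 41 to 71 per sample.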
